A study of Mus musculus with 16 samples.

Results

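Cyp2a4, Cyp2a5, Cyp2a12, Cyp2a22 and Cyp2g1 are neighbouring cytochrome P450 genes of mouse chromosome 7. They were taken as the rows of both count tables whose Ensembl identifier carries one of these symbols, and all 5 were found among 23167 identifiers shared by the tables. The counts came from poly(A) RNA of whole liver, 1 library per mouse and 4 mice per group. The female LKO group carried floxed Matr3 alleles plus Cre recombinase driven by the albumin promoter, which is active in hepatocytes, and the female floxed group, littermates per the labels, carried the floxed alleles without Cre. Male LKO and male floxed groups had the same genotypes. From 7 weeks of age all 16 mice had eaten high-fat food, in which fat gave 60% of the energy, for 16 weeks, and all went without food for 12 hours before the livers were taken, so there was no group on chow and none in the fed state. Matr3 encodes matrin-3, a nuclear matrix protein that binds RNA.

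Cytochrome P450 enzymes of the CYP2A family sit in the endoplasmic reticulum of hepatocytes, where they take electrons from cytochrome P450 reductase and oxidise steroids, drugs and toxins around a heme group. Cyp2a5, the mouse counterpart of human CYP2A6, hydroxylates coumarin and oxidises nicotine and bilirubin. Cyp2a4, its close copy, hydroxylates testosterone and is a classical female-biased gene of mouse liver, kept low in males by pulsatile growth hormone. Cyp2a12 is another steroid hydroxylase of liver, and Cyp2g1 is best known as a P450 of the olfactory mucosa. HNF4A, C/EBP factors, NRF2 and the RNA-binding protein hnRNP A1 are known regulators of Cyp2a5 transcription or mRNA.

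In coordinates of mm10, Cyp2a4 (ENSMUSG00000074254) spans chr7:26307169-26315088, Cyp2g1 (ENSMUSG00000049685) chr7:26808892-26821205, Cyp2a5 (ENSMUSG00000005547) chr7:26835305-26843548 and Cyp2a12 (ENSMUSG00000060407) chr7:27029081-27037375, all on the plus strand. Cyp2a22 (ENSMUSG00000091867) lies between Cyp2a5 and Cyp2a12 at chr7:26931631-26939384 on the minus strand. The family falls into pairs of near copies. The coding sequences of Cyp2a4 and Cyp2a5 were 98.45% identical, with 23 differences in 1485 bases, and those of Cyp2a12 and Cyp2a22 were 96.96% identical, with 45 differences in 1479 bases. Between the pairs identity was 75.25% to 76.4%, and Cyp2g1 shared 63.11% to 65.63% of its coding bases with the other 4 genes. Because differences are spread along the transcripts, 183 of the 1639 stretches of 100 bases in the Cyp2a4 transcript (11.17%) occur without change in that of Cyp2a5, and 108 of 1582 (6.827%) in Cyp2a12 occur in Cyp2a22. Reads from those stretches cannot be told apart, and how the counting treated them is not stated in the sources at hand. The stretch below shows coding bases 596 to 655 of both genes from the GENCODE transcripts, chosen because 4 of the differences, in capitals, stand close together there and so identify the transcript a read came from.
Cyp2a4: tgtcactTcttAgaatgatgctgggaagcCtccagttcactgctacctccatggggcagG
Cyp2a5: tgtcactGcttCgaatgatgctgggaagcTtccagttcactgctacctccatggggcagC

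The promoters repeat this pairing. The windows below are those of RefSeq (GRCm38.p6, 250 bases before to 50 bases after the start), shown because members of a pair gave different values in the same livers although their promoter letters are nearly the same. They lie at chr7:26306942-26307241 for Cyp2a4, chr7:26835089-26835388 for Cyp2a5, chr7:27028840-27029139 for Cyp2a12 (all plus strand) and chr7:26939337-26939636 for Cyp2a22 (minus strand, printed in the direction of the gene). RefSeq windows matched 4 of the 5 members. Capitals mark TATAAA (the TATA box), CAAAGTCC (part of an HNF4-type repeat) and TTGCNNAA (a motif of the C/EBP family).
Cyp2a4: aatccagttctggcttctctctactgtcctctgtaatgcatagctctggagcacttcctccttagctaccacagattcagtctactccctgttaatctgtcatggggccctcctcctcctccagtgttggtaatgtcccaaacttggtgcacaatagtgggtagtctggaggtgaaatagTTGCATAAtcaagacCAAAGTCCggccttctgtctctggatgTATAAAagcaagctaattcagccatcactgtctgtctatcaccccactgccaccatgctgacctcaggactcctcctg
Cyp2a5: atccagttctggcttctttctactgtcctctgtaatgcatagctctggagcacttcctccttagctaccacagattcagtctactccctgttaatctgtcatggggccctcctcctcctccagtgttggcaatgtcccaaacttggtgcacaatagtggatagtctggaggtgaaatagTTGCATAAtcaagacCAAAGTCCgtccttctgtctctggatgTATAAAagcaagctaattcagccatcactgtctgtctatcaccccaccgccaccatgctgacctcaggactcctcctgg
Cyp2a12: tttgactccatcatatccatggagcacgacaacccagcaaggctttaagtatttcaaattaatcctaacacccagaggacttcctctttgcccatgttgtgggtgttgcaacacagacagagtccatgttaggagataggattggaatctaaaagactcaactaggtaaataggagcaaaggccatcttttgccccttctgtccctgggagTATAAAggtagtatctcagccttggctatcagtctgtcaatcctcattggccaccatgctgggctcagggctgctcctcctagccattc
Cyp2a22: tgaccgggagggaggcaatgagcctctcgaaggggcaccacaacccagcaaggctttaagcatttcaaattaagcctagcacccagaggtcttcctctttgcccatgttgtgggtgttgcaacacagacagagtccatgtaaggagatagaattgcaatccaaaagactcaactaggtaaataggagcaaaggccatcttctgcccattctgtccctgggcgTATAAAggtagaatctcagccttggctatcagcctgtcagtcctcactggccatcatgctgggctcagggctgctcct

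The Cyp2a4 and Cyp2a5 windows differed at 5 of 299 aligned bases (98.3% identity), and those of Cyp2a12 and Cyp2a22 at 28 of 289 (90.3%). Both Cyp2a4 and Cyp2a5 held the C/EBP letters (positions -70 and -71 from the start), the HNF4-type letters (-55 and -56), TATAAA (-28 and -29) and, on the minus strand, the nuclear receptor motif AGGTCA (31 and 30 bases after the start). Cyp2a12 and Cyp2a22 held TATAAA alone, at -39 and -28. Of 32851 promoter windows of this length, 13.6% held TATAAA, 1.42% CAAAGTCC, 10.8% TTGCNNAA and 16.3% AGGTCA, each on either strand. A further 5 sets of letters were searched on both strands and were in none of the 4 windows, namely TTCNNNGAA (STAT, in 8.3% of all windows), TGACNNNGC (NRF2, 12.4%), GCGTG (aryl hydrocarbon receptor, 32.4%), AGTTCA (nuclear receptors, 14%) and CACGTG (E-box, 7.15%). A match is a description of these letters and not of binding.

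Each library held between 30495505 and 36496193 counts assigned to genes, and the 5 genes made up 0.0823 ± 0.0190% of them in LKO females, 0.341 ± 0.0763% in floxed females, 0.186 ± 0.0154% in LKO males and 0.217 ± 0.0449% in floxed males (SD, n = 4 each). Matr3 counts were lower in LKO livers, at 38.1 ± 1.36 CPM in LKO females against 58.1 ± 4.95 CPM in floxed females, and 35.4 ± 1.55 CPM in LKO males against 57.8 ± 3.72 CPM in floxed males (SD, n = 4 each). CPM are counts per 1000000 counts after TMM scaling of all 16 libraries to a common size. The sexes were counted in separate tables, so sex and table cannot be told apart in any comparison between sexes. Without female floxed 4 and female LKO 7 together, 3028 genes were called in females, against 1433 with them. The sample codes of male floxed 1 and 2 in the labels lie far from those of the other animals. Where the call of a named gene turned on these libraries, this is stated.

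In LKO females, 4 of the 5 genes fell, Cyp2a5 by 9.89-fold and Cyp2a22 by 9.01-fold. The fall of Cyp2a5 was larger without LKO 7, the highest of its group, at -4.12 on the log2 scale against -3.31 with it. In LKO males none of these falls was of that size, Cyp2a12 fell modestly and Cyp2a4 rose. A gene was called when its adjusted p from the quasi-likelihood F-test of edgeR, over all genes tested, was under 0.05. By this rule 4 of 5 members were called in females, all lower, where 9.29% of all genes tested were called in either direction and 4.85% were called lower. In males 2 of 5 were called, 1 higher and 1 lower, where 1.04% of all genes were called (0.528% higher and 0.514% lower). The groups of CPM values did not overlap for the same 4 members in females, against 16% of all genes, and for the same 2 in males, against 8.06%. The median log2 fold change of the members was -2.79 in females and -0.23 in males, and that of all genes tested was 0.00 and -0.01.

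**Figure D1:**
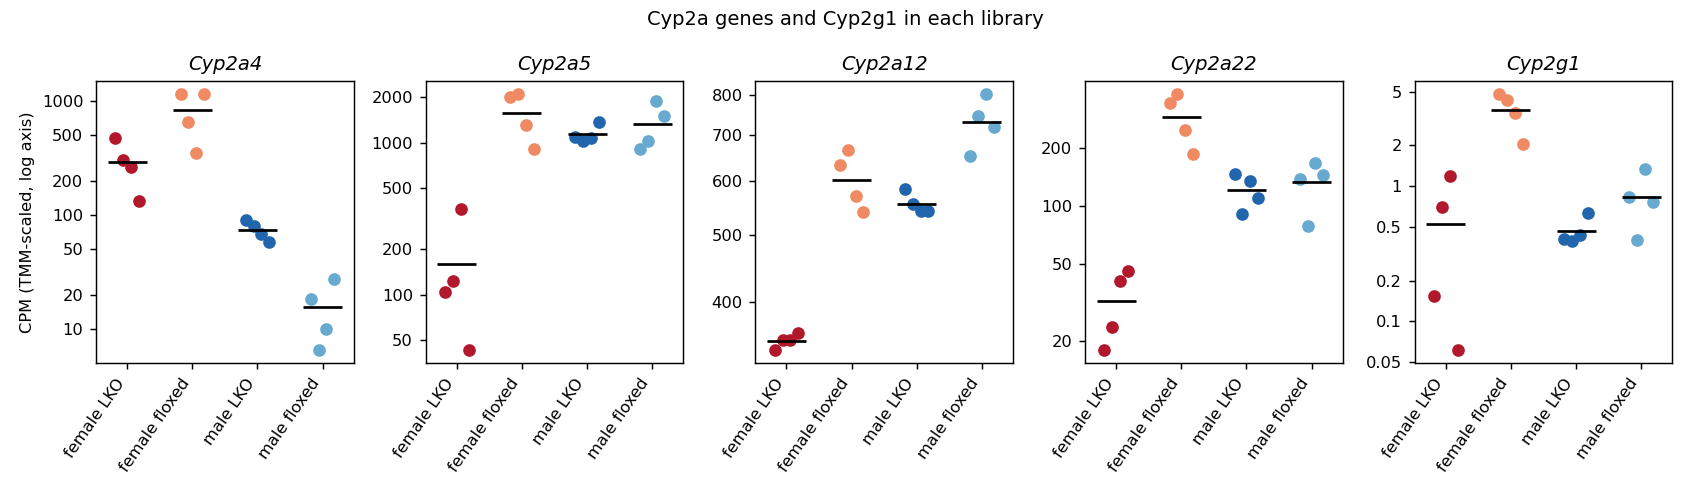
Level of each gene in each library, in CPM on a log axis. Points are mice, left to right in replicate order within a group, and bars are group means (n = 4). The 4 LKO females lie below all floxed females for Cyp2a5, Cyp2a12, Cyp2a22 and Cyp2g1, and the 4 LKO males lie above all floxed males for Cyp2a4.

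Cyp2a5, the coumarin hydroxylase, had 104, 123, 366 and 42.9 CPM in LKO females 5 to 8, against 1989, 2091, 1299.7 and 906 CPM in floxed females 1 to 4. Every LKO female was below every floxed female, with LKO 7 the highest of its group and LKO 8 the lowest. The means were 159 ± 142 CPM in LKO and 1571 ± 566 CPM in floxed females (SD, n = 4 each), which is 9.89-fold lower (log2 -3.31, SE 0.58, edgeR adjusted p = 0.0118). Without LKO 7 the log2 value was -4.12 (edgeR adjusted p = 0.00114), and without LKO 7 and floxed 4 it was -4.31 (0.000479). Floxed 4 was the lowest floxed female, so both omissions widen the gap by construction and are no further support for the fall. In males it had 1094, 1029, 1068 and 1358 CPM in LKO 5 to 8, against 913, 1024, 1881 and 1500.0 CPM in floxed 1 to 4. The male groups overlapped, and the log2 fold change of -0.23 (95% interval -0.68 to 0.23, edgeR adjusted p = 0.728) had an interval that does not reach the value seen in females. The difference between the effects, female minus male, was -3.08 on the log2 scale (SE 0.65, edgeR adjusted p = 0.0152). It lost its call without male floxed 1 and 2 together, where it was -2.74 (edgeR adjusted p = 0.0852), and was -3.90 without female LKO 7.

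Cyp2a4, the testosterone hydroxylase, moved the other way in males. LKO males 5 to 8 had 89.4, 79.6, 68.2 and 58.3 CPM, against 18.3, 6.49, 10.02 and 27.3 CPM in floxed males 1 to 4, so that the lowest LKO male was above the highest floxed male. The means were 73.9 ± 13.5 CPM in LKO and 15.5 ± 9.30 CPM in floxed males (SD, n = 4 each), which is 4.76-fold higher (log2 2.25, SE 0.36, edgeR adjusted p = 0.0176). This call did not survive the omission of LKO 5 (edgeR adjusted p = 0.0615), LKO 6 (0.0548) or floxed 3 (0.0565), nor a robust estimate of the dispersion (0.104). LKO females 5 to 8 had 469.8, 306, 265 and 134 CPM, against 1147, 655, 349 and 1150.1 CPM in floxed females 1 to 4. Floxed 3 lay below LKO 5, so the female groups overlapped. The log2 fold change in females was -1.49 (SE 0.42, 95% interval -2.44 to -0.55), and its edgeR adjusted p of 0.0544 missed the threshold. It passed without floxed 3 (-1.75, edgeR adjusted p = 0.0349), without the filter on low counts (0.0344), in the fit of all 16 libraries (0.0261) and with DESeq2 (0.0194). Floxed 3 was the lowest floxed female, so its omission enlarges the fall by construction and is no further support for it. The difference between the effects of the sexes was -3.74 (SE 0.62, edgeR adjusted p = 0.00617), with LKO males above and the mean of LKO females below their floxed groups.

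Even after the rise, the level of Cyp2a4 in LKO males stayed under that of every female library, since the highest LKO male had 89.4 CPM and the lowest LKO female 134 CPM. An antisense gene, Gm42375, overlaps the start of Cyp2a4 on the minus strand (chr7:26304421-26307286) and had counts of 1.95% to 6.10% of those of Cyp2a4 in the 16 libraries. Its CPM were 3.30 to 9.18 in LKO females, 11.6 to 23.2 in floxed females, 1.40 to 2.50 in LKO males and 0.154 to 1.14 in floxed males, so it was high where Cyp2a4 was high. The libraries were directional per the labels, but no source at hand states the strand setting of the counting, so reads of the overlap cannot be assigned to either gene.

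Cyp2a22, the near copy of Cyp2a12, had 17.9, 23.7, 40.8 and 46.0 CPM in LKO females 5 to 8, against 341, 381, 248 and 185 CPM in floxed females 1 to 4. The groups did not overlap, and the highest LKO female was well below the lowest floxed female. The log2 fold change was -3.17 (SE 0.33, edgeR adjusted p = 0.00273), or 9.01-fold lower. LKO males had 147, 91.1, 135 and 111 CPM, against 139, 78.8, 168 and 145 CPM in floxed males, which overlapped fully. The log2 fold change in males was -0.14 (95% interval -0.61 to 0.34, edgeR adjusted p = 0.870), and without floxed 3 it was 0.00078. The difference between the sexes was -3.03 (SE 0.42, edgeR adjusted p = 0.00277) and kept its call without any 1 library. Cyp2a22 lies within a pseudogene on the other strand, Cyp2a21-ps, whose counts were 0 to 38 in the 16 libraries.

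Cyp2a12 varied least within groups of the 5 and was the only one called lower in LKO livers of both sexes. It had 341, 353, 353 and 361 CPM in LKO females 5 to 8, against 632, 664, 570.3 and 539.9 CPM in floxed females 1 to 4. LKO males 5 to 8 had 584, 556, 542 and 543 CPM, against 652, 744, 802 and 719 CPM in floxed males 1 to 4. Neither pair of groups overlapped. The log2 fold change was -0.78 in females (SE 0.09, edgeR adjusted p = 0.00367), or 1.71-fold lower, and -0.39 in males (SE 0.07, edgeR adjusted p = 0.0332), or 1.31-fold lower. In males the call was lost when LKO 5, 6, 7 or 8, floxed 2 or floxed 3 was omitted, with log2 values of -0.34 to -0.42 and edgeR adjusted p of 0.0688 to 0.114. Over both sexes the log2 fold change was -0.58 (SE 0.06, edgeR adjusted p = 1.17e-05). The difference between the sexes of -0.38 (SE 0.11) did not pass (edgeR adjusted p = 0.0614), but it did with DESeq2 (-0.38), without male floxed 3 (-0.43) and without female floxed 4 (-0.43). Male floxed 3 was the highest and female floxed 4 the lowest of their groups, so both omissions enlarge the difference by construction.

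Cyp2g1, the olfactory P450, had few counts in liver. Its raw counts were 5, 22, 40 and 2 in LKO females 5 to 8, against 156, 150, 112 and 67 in floxed females 1 to 4, and 13 to 23 in LKO males against 13 to 45 in floxed males. In CPM these were 0.154, 0.701, 1.19 and 0.0611 in LKO females, against 4.81, 4.37, 3.49 and 2.06 in floxed females. The female groups did not overlap, and LKO 7 was again the highest and LKO 8 the lowest of the LKO group. The log2 fold change in females was -2.79 (SE 0.59, edgeR adjusted p = 0.0217). It was -3.59 without LKO 7 and -3.44 with limma-voom, and the call was lost without LKO 5, LKO 6, floxed 1 or floxed 2 (edgeR adjusted p of 0.0583, 0.0517, 0.0681 and 0.0627). In males it was -0.83 (95% interval -1.62 to -0.04, edgeR adjusted p = 0.382), with overlapping groups. The difference between the sexes was -1.97 (SE 0.78, edgeR adjusted p = 0.162) and passed without female LKO 7 (-2.76, edgeR adjusted p = 0.0284). Omission of LKO 7, the highest of its group, enlarges the female fall by construction.

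**Figure D2:**
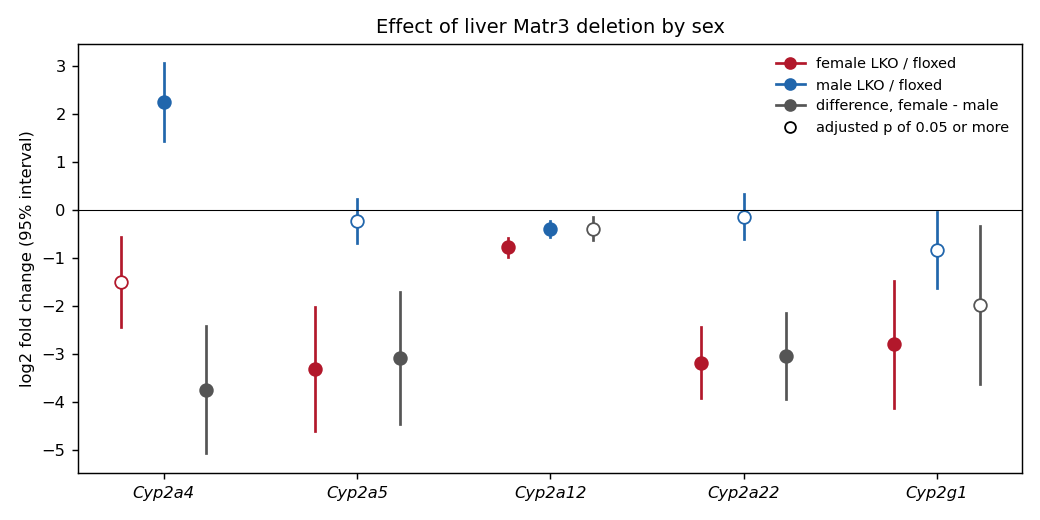
Log2 fold change of LKO over floxed in females (red) and males (blue) and the difference of these effects, female minus male (grey). Bars are 95% intervals from the edgeR fits and open circles mark an adjusted p of 0.05 or more. Cyp2a4 has a positive value in males (2.25) and a negative one in females (-1.49), and Cyp2a5 and Cyp2a22 lie near 0 in males and below -3 in females.

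For the difference between the effects of the sexes, 3 of 5 members were called, all lower in females, where 4.42% of all genes were called in either direction and 2.45% lower. For the mean effect over both sexes 4 of 5 were called, all lower, where 8.55% of all genes were called in either direction and 4.5% lower. Besides Cyp2a12 these were Cyp2a5 (-1.76, edgeR adjusted p = 0.00469), Cyp2a22 (-1.65, edgeR adjusted p = 0.000209) and Cyp2g1 (-1.81, edgeR adjusted p = 0.0101). For Cyp2a5, Cyp2a22 and Cyp2g1 the female values were -3.31, -3.17 and -2.79, all called. Their male values were -0.23, -0.14 and -0.83, none called, so these means do not show a fall in both sexes. Cyp2a4 had a mean effect of 0.38 (SE 0.30, edgeR adjusted p = 0.472), the average of values of opposite sign.

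The near copies in each pair were compared by their share of the pair's counts. Cyp2a5 made up 18.2% (95% exact binomial interval 17.6 to 18.7), 28.8% (28.0 to 29.5), 58.0% (57.3 to 58.7) and 24.3% (23.2 to 25.4) of the Cyp2a4 and Cyp2a5 counts in LKO females 5 to 8. In floxed females 1 to 4 it made up 63.4% (63.1 to 63.7), 76.2% (75.9 to 76.4), 78.8% (78.5 to 79.2) and 44.1% (43.7 to 44.4). Cyp2a4 was thus the more abundant of the pair in 3 of 4 LKO females, against 1 of 4 floxed females, and the ranges overlapped through LKO 7 and floxed 4. In males Cyp2a5 kept most of the pair, at 93.8 ± 1.55% in LKO and 98.8 ± 0.754% in floxed livers (SD, n = 4 each), and the ranges of 92.4% to 95.9% and 98.0% to 99.5% did not overlap. These intervals cover counting error only, and reads shared by the copies limit how far the shares can be trusted.

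The counts of Cyp2a4 and Cyp2a5 were also summed, so that a read placed on the wrong copy of the pair does not matter, though a shared read that the counting discarded is not regained. The sum was 453 ± 203 CPM in LKO females, 2396.3 ± 669 CPM in floxed females, 1211 ± 140 CPM in LKO males and 1345 ± 448 CPM in floxed males (SD, n = 4 each). As 1 feature in the fit it fell in females (log2 fold change -2.41, SE 0.36, edgeR adjusted p = 0.00743). In males its value was -0.15 (95% interval -0.59 to 0.29, edgeR adjusted p = 0.835), since Cyp2a4 was a small share of the pair there. The difference between the sexes was -2.25 (SE 0.45, edgeR adjusted p = 0.0129). For the other pair, Cyp2a22 made up 8.24 ± 3.08% of the Cyp2a12 and Cyp2a22 counts in LKO females, against 31.8 ± 4.97% in floxed females, without overlap. In males it made up 17.8 ± 2.84% in LKO and 15.3 ± 3.83% in floxed livers (SD, n = 4 each), with overlap.

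**Figure D3:**
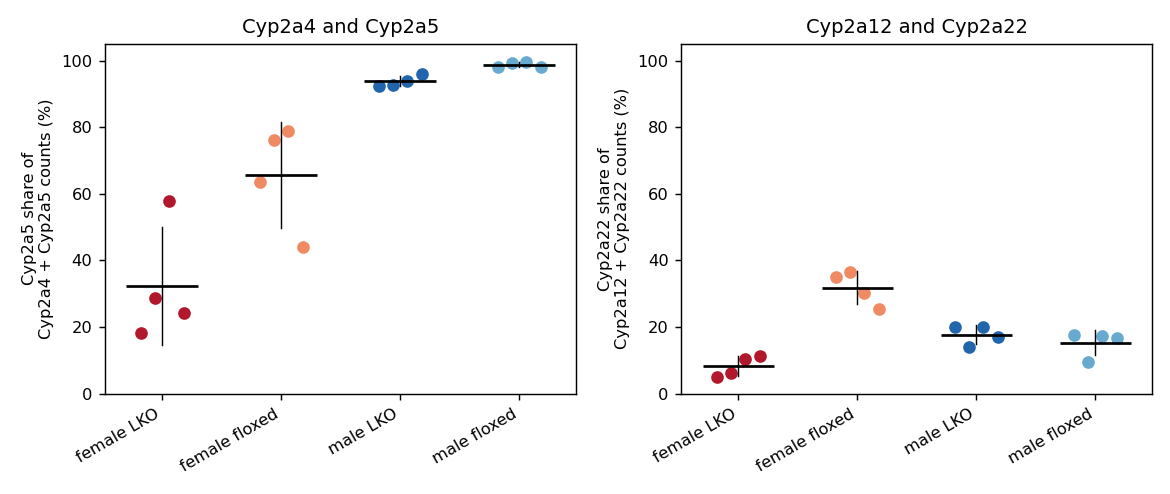
Share of the pair's counts, in percent, taken by Cyp2a5 of Cyp2a4 and Cyp2a5 (left) and by Cyp2a22 of Cyp2a12 and Cyp2a22 (right). Points are mice, horizontal bars are means and vertical lines are 1 SD (n = 4). The share of Cyp2a5 is 32.3% on average in LKO females and 65.6% in floxed females, and above 92% in all males.

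Levels of different genes were compared as CPM per kilobase of the transcript with the longest coding sequence. This transcript has 1681 bases for Cyp2a12 and 1796 for Cyp2a22, whereas all annotated exons of these genes span 3457 and 3445 bases. For Cyp2a4 both lengths are 1738 bases, and for Cyp2a5 they are 2013 and 2073. The places of Cyp2a12 and Cyp2a22 in the orders below, and their overlaps, therefore depend on the length chosen. In LKO females the order was Cyp2a12 (209), Cyp2a4 (169), Cyp2a5 (79.1), Cyp2a22 (17.9) and Cyp2g1 (0.278), and the ranges of neighbours overlapped down to Cyp2a22. In floxed females it was Cyp2a5 (781), Cyp2a4 (475), Cyp2a12 (358), Cyp2a22 (161) and Cyp2g1 (1.94), with overlap between Cyp2a5 and Cyp2a4 and between Cyp2a4 and Cyp2a12. LKO males had Cyp2a5 (565), Cyp2a12 (331), Cyp2a22 (67.2), Cyp2a4 (42.5) and Cyp2g1 (0.246), where only Cyp2a22 and Cyp2a4 overlapped. Floxed males had the same order, with Cyp2a5 (660.5), Cyp2a12 (434), Cyp2a22 (73.9), Cyp2a4 (8.94) and Cyp2g1 (0.438), where only Cyp2a5 and Cyp2a12 overlapped. Cyp2a5 led in 3 of the 4 groups and was behind Cyp2a12 and Cyp2a4 in LKO females.

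The sexes were also compared within a genotype. Among floxed mice Cyp2a4 was 53.1-fold higher in females than in males (log2 difference 5.73, SE 0.52, edgeR adjusted p = 1.5e-06), the lowest female having 349 CPM and the highest male 27.3 CPM. Cyp2g1 (2.14, edgeR adjusted p = 0.0057) and Cyp2a22 (1.12, edgeR adjusted p = 0.0119) were also higher in floxed females, Cyp2a12 was lower (-0.28, edgeR adjusted p = 0.0185), and Cyp2a5 had a difference of 0.24 (95% interval -0.71 to 1.19, edgeR adjusted p = 0.740). These 4 calls of 5 members stand against 22.9% of all genes called. For Cyp2a4, Cyp2a22 and Cyp2g1 the sexes did not overlap, against 24.1% of all genes. Without male floxed 1 and 2 the calls of Cyp2g1 (1.81, edgeR adjusted p = 0.0633) and Cyp2a22 (0.88, 0.0996) were lost and Cyp2a5 changed sign (-0.11). The call of Cyp2a12 was lost without male floxed 3 (-0.23, edgeR adjusted p = 0.0661) or female floxed 4 (-0.23, 0.0532).

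Among LKO mice Cyp2a4 was still higher in females, by 1.99 on the log2 scale (SE 0.44, edgeR adjusted p = 0.00187), or 3.97-fold. Cyp2a5 was 7.15-fold lower in females than in males (log2 difference -2.84, SE 0.48, edgeR adjusted p = 0.00023; -3.66 without female LKO 7), and Cyp2a22 (-1.91, edgeR adjusted p = 0.000126) and Cyp2a12 (-0.66, edgeR adjusted p = 1.03e-05) were lower too. Thus 4 of 5 members were called, 1 higher and 3 lower, where 42% of all genes were called. The sexes did not overlap for these 4 genes, against 39.1% of all genes. Cyp2g1, with 0.527 ± 0.525 CPM in LKO females and 0.466 ± 0.112 CPM in LKO males (SD, n = 4 each), differed by 0.17 (95% interval -1.09 to 1.43, edgeR adjusted p = 0.835), and by -0.63 without female LKO 7. The comparisons of floxed and of LKO mice use the same libraries as those of genotype, so they are not separate evidence.

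Within groups the genes did not vary together in full. LKO female 8 was the lowest of its group for Cyp2a4, Cyp2a5 and Cyp2g1 and the highest for Cyp2a12 and Cyp2a22. Among floxed females, floxed 4 was the lowest for every member except Cyp2a4, for which it was the highest. Among floxed males, floxed 3 was the highest for every member except Cyp2a4. The highest library exceeded the lowest of its group by 1.06-fold to 1.23-fold for Cyp2a12 in the 4 groups, and in LKO females by 3.52-fold for Cyp2a4, 8.53-fold for Cyp2a5, 2.57-fold for Cyp2a22 and 19.5-fold for Cyp2g1.

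The genes whose pattern over the 16 libraries was most like each member were ranked by the root mean square difference of log2 CPM, each gene centred on its own mean, over 11652 genes. Models named only as predictions or by clones hold places in the ranking but are not printed, so those given are the 5 nearest of the remaining genes. For Cyp2a5 they were Inmt (0.44), an indolethylamine methyltransferase, Serpina6 (0.48), which encodes corticosteroid-binding globulin, the pseudogenes Mup-ps12 (0.51) and Mup-ps14 (0.52), and Upp2 (0.62), a uridine phosphorylase. Serpina6 averaged 97.8 ± 92.3 CPM in LKO females, 484 ± 183 CPM in floxed females, 368 ± 50.2 CPM in LKO males and 325 ± 121 CPM in floxed males (SD, n = 4 each). The nearest named genes of Cyp2a22 were Afmid (0.61), Mup-ps16 (0.62), Tm7sf2 (0.67) and the carboxylesterases Ces1f (0.68) and Ces1d (0.69). Each of Cyp2a5 and Cyp2a22 was nearer to the other (0.87, place 23 from Cyp2a5 and place 66 from Cyp2a22) than to its own near copy, since Cyp2a5 and Cyp2a4 stood 3.04 apart and Cyp2a22 and Cyp2a12 0.95.

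The nearest named genes of Cyp2a4 were Aldh3b3 (0.82), an aldehyde dehydrogenase, the magnesium transporter Nipal1 (1.00), the sialyltransferase St3gal6 (1.21), Cyp17a1 (1.29), a P450 of steroid synthesis, and Sybu (1.33). Cyp17a1 averaged 327 ± 98.8 CPM in LKO and 143 ± 43.4 CPM in floxed females (SD, n = 4 each), so its group means stood in the opposite order to those of Cyp2a4 in females. For Cyp2a12, which varied little, they were Immp2l (0.14), Agmo (0.15), Bphl (0.15), Umad1 (0.16) and Ccdc107 (0.16). For Cyp2g1 they were Dclk3 (0.83), Gas1 (0.87), Bmf (0.88), Tk1 (0.90) and Gbp3 (0.93). Small distances are easier to reach for a gene of small range, and none of these rankings carries a test.

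The flanks of the cluster were described from 20 neighbours, of which 16 were tested. In females 2 of the 16 were called, both lower, namely the female-biased P450 genes Cyp2b9 and Cyp2b13, which lie on the Cyp2a4 side. Of all genes tested, 9.29% were called in females (4.85% lower) and 1.04% in males. The counts of this and the following lists stand beside these shares, and a count near them says nothing particular about a list. Cyp2b9 had 347 ± 47.0 CPM in LKO and 623 ± 61.9 CPM in floxed females (SD, n = 4 each; log2 fold change -0.85, edgeR adjusted p = 0.0059). Cyp2b13 had 185 ± 37.2 CPM in LKO and 457 ± 148 CPM in floxed females (-1.30, edgeR adjusted p = 0.0147), and was not called without floxed 1 (0.0509). In males 0 of 16 were called by edgeR, 5 had an unadjusted p under 0.05, 1 was called lower by DESeq2 and 0 by limma-voom. Cyp2f2, a lung-type P450 directly beyond Cyp2a12, had a log2 fold change of -0.26 in females (edgeR adjusted p = 0.447) and 0.09 in males (0.863). The median of the 16 was -0.13 in females and -0.02 in males.

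**Figure D4:**
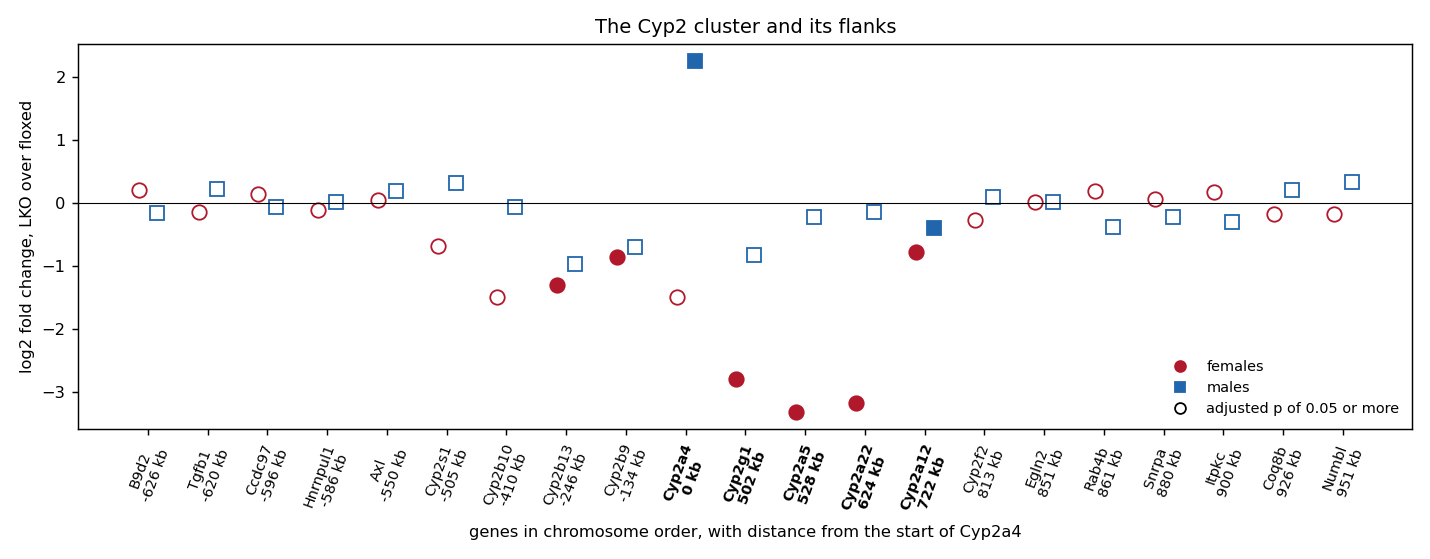
Log2 fold change of LKO over floxed along the gene cluster, with females as circles and males as squares and open symbols for an adjusted p of 0.05 or more. Genes are evenly spaced in chromosome order and labelled with their distance from the start of Cyp2a4, members in bold. Filled symbols occur at Cyp2b13, Cyp2b9 and the 5 members, and the other flanking genes have open symbols, of which Cyp2b10 lies lowest in females (-1.49, edgeR adjusted p = 0.176).

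Transcription factors and RNA-binding proteins known to act on Cyp2a genes were measured next, 23 in all. In females 2 rose and 2 fell, where 9.29% of all genes tested were called. Nr1i3, which encodes the xenobiotic receptor CAR, had 495 ± 102 CPM in LKO and 999 ± 128 CPM in floxed females (log2 fold change -1.01, SE 0.16, edgeR adjusted p = 0.00796) and kept its call without any 1 library. Hlf, a circadian PAR-domain factor, fell by 0.71 on the log2 scale, Hnf4a rose by 0.52 and Ppargc1a, a coactivator of HNF4A, rose by 0.94 (edgeR adjusted p of 0.0205, 0.023 and 0.0463). Ppargc1a lost its call with limma-voom and with robust dispersion (adjusted p up to 0.0823). The count of higher and lower calls was 0 and 1 without LKO 5 or floxed 1, 1 and 1 without LKO 6 or floxed 2, 3 and 6 without LKO 7, and 0 and 2 without LKO 8 or floxed 3. In males 0 of 23 were called by edgeR, DESeq2 or limma-voom, and 0 had an unadjusted p under 0.05, with Hnf4a at -0.18 (edgeR adjusted p = 0.458) and Hnrnpa1 at -0.11 (0.502).

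Growth hormone signalling, which sets the sex bias of liver P450 genes, was covered by 15 genes. In females Socs3, a feedback inhibitor of cytokine receptors, rose by 1.19 on the log2 scale (63.2 ± 17.1 CPM in LKO against 27.6 ± 2.21 CPM in floxed, SD, n = 4 each; edgeR adjusted p = 0.00579). The prolactin receptor gene Prlr fell by 0.57 (edgeR adjusted p = 0.0267) and the growth hormone receptor gene Ghr by 0.59 (0.0322). The calls of Prlr and Ghr were each lost without LKO 5, 6 or 8 or floxed 1, 2 or 3, and that of Prlr in the fit of all 16 libraries (edgeR adjusted p = 0.0543). In males 0 of 15 were called by edgeR, DESeq2 or limma-voom, and 1 had an unadjusted p under 0.05.

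Of the other female-biased liver genes, 25 were tested in females, where 2 rose and 13 fell, with a median of -1.11. Sult2a1, a steroid sulfotransferase, had 8.65 ± 4.94 CPM in LKO and 280 ± 79.4 CPM in floxed females (log2 fold change -5.02, edgeR adjusted p = 0.000899), a larger fall than that of any member, and Hao2, a hydroxyacid oxidase, fell by 4.52 (edgeR adjusted p = 0.00367). Sult3a1 rose by 1.44 (edgeR adjusted p = 0.00367). The counts of higher and lower calls were 1 and 6 without LKO 6 or LKO 8, and 1 and 5 without floxed 1. In males 0 of the 17 tested were called by edgeR or limma-voom, 1 was called lower by DESeq2, and 5 had an unadjusted p under 0.05. The median of this list in males was 0.10.

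Of 18 male-biased genes tested in males, 2 were called lower, Susd4 (-0.64, edgeR adjusted p = 0.0309) and Serpina1e (-1.54, 0.0398), and the count was 0 without LKO 5, 7 or 8 or floxed 3 and 1 without LKO 6 or floxed 2. In the fit of all 16 libraries neither was called (edgeR adjusted p of 0.208 and 0.325). Serpina1e also lost its call with robust dispersion and without male floxed 1 and 2 together. Of 15 tested in females, 4 rose and 1 fell, among them C8a (1.05, edgeR adjusted p = 0.0101) and Ugt2b1 (-0.72, 0.0158). These counts were 3 and 0 without LKO 5, 1 and 0 without floxed 1, and 2 and 1 without floxed 2. Among other drug-metabolising P450 genes, 1 of 29 rose and 7 fell in females, including Cyp1a2 (-1.21, edgeR adjusted p = 0.0138), Cyp3a11 (-0.996, 0.0163) and Cyp2c29 (-1.10, 0.0167). Cyp1a2 was not called in the fit of all 16 libraries (edgeR adjusted p = 0.379). The counts were 0 and 3 without LKO 5 or floxed 2, 0 and 5 without LKO 6, 1 and 12 without LKO 7, and 0 and 2 without floxed 1. In males 2 of 30 were lower, Cyp2c54 (-1.88, edgeR adjusted p = 0.0268) and Cyp3a59 (-0.72, 0.0417), with 0 lower without any 1 of LKO 5 to 8, 1 without floxed 1 and 4 without floxed 4. Neither was called with robust dispersion, nor Cyp3a59 in the fit of all 16 libraries.

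P450 enzymes need electrons and heme. Of 6 redox partners, Cyb5b, an outer mitochondrial membrane cytochrome b5, fell in females (192 ± 27.2 CPM in LKO against 330.2 ± 19.4 CPM in floxed; log2 fold change -0.78, edgeR adjusted p = 0.00535), as did Pgrmc1 (-0.50, 0.0285). Por, the reductase itself, had -0.31 (edgeR adjusted p = 0.339). The count of 2 was 1 without LKO 5, 6 or 8 or floxed 1, 2 or 3, and 4 without LKO 7. In males 1 of 6 was called, Cyb5r3 (0.32, edgeR adjusted p = 0.043), and 0 without any 1 library or in the fit of all 16 libraries (edgeR adjusted p = 0.347). Cyb5r3 also lost its call without male floxed 1 and 2 together. Of 8 heme synthesis genes, Alad fell in females (-0.55, edgeR adjusted p = 0.015), and in males 0 were called by edgeR, DESeq2 or limma-voom and 0 had an unadjusted p under 0.05. Of 8 genes of heme breakdown and bilirubin handling, 3 fell in females, namely the transporters Abcc2 (-0.71, edgeR adjusted p = 0.00823) and Abcc3 (-0.70, 0.0165) and the bilirubin glucuronosyltransferase Ugt1a1 (-0.56, 0.0252). That count was 1 without floxed 1 or floxed 2. In males Abcc2 was the single call (-0.56, edgeR adjusted p = 0.0199), lost without LKO 5, 7 or 8 or floxed 3, and without floxed 1 and 2 together (edgeR adjusted p = 0.0627).

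Position in the lobule and inflammation were followed because Cyp2a5 is a pericentral enzyme that is known to respond to both. Of 18 pericentral genes 4 fell in females, Nkd1, Cyp1a2, Rnf43 and Aldh1a1 (log2 fold changes of -0.75, -1.21, -0.80 and -0.74, edgeR adjusted p of 0.0118, 0.0138, 0.0473 and 0.0487), and 2 were left without LKO 5, 6 or 8 or floxed 1, 2 or 3. Cyp1a2 also lost its call in the 16-library fit, Rnf43 with robust dispersion (edgeR adjusted p = 0.0691) and Aldh1a1 with limma-voom (adjusted p = 0.0526). Of 16 periportal genes 4 rose in females, Cdh1 (1.24), Sdsl (1.15), Pck1 (0.77) and Arg1 (0.55; edgeR adjusted p of 0.00367 to 0.0385), and 2 without LKO 5 or 8 or floxed 1, 2 or 3. In males 0 of 18 and 0 of 16 were called by edgeR, with 2 and 3 at an unadjusted p under 0.05, 0 of both lists by limma-voom, and 1 higher and 1 lower periportal gene by DESeq2. Of 20 acute-phase genes 16 rose in LKO females and 0 fell, with a median of 1.23, and Saa2, a serum amyloid A gene, had 9230.1 ± 6248 CPM in LKO against 349 ± 228 CPM in floxed females (SD, n = 4 each; log2 fold change 4.72, edgeR adjusted p = 0.0051). In males 0 of 20 were called by edgeR or limma-voom, 1 was called lower by DESeq2 and 4 had an unadjusted p under 0.05. The rise of these genes moves with the fall of Cyp2a5, Cyp2a22 and Cyp2g1 in LKO females, and its part in that fall was not tested.

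In bulk liver, fewer cells of a type and less RNA per cell cannot be told apart. The summed level of 8 hepatocyte markers, all in both tables, was 37197 to 55293 CPM in LKO females, 61985 to 72115 CPM in floxed females, 73706 to 84288 CPM in LKO males and 67282 to 85227 CPM in floxed males. In females 3 of the 8 were called, with Alb (-0.88) and Ttr (-0.75) lower and Tat (1.30) higher (edgeR adjusted p of 0.0303 to 0.0338), 1 without LKO 6 or floxed 3 and 0 without LKO 5, LKO 8, floxed 1 or floxed 2. Sinusoidal endothelial markers (8 of 8 in both tables) summed to 169 to 217 CPM in LKO females, 240.5 to 256 CPM in floxed females, 264 to 289 CPM in LKO males and 197 to 272 CPM in floxed males. Of these, 5 were lower in females, 3 without LKO 5, 6 or 8 or floxed 2, and 2 without floxed 1. Neutrophil markers (8 of 8) summed to 27.8 to 118 CPM in LKO females, 11.5 to 82.3 CPM in floxed females, 5.9997 to 9.60 CPM in LKO males and 5.72 to 10.4 CPM in floxed males. Kupffer cell and macrophage markers (8 of 8) summed to 693 to 1108 CPM in LKO females, 600.0 to 945 CPM in floxed females, 242 to 433 CPM in LKO males and 206 to 334 CPM in floxed males. Stellate cell markers (7 of 7) summed to 276 to 305 CPM in LKO females, 309.8 to 375 CPM in floxed females, 362 to 449.8 CPM in LKO males and 279.7 to 498 CPM in floxed males. Cholangiocyte markers (6 of 6) summed to 27.1 to 40.0 CPM in LKO females, 35.3 to 52.7 CPM in floxed females, 50.1 to 72.8 CPM in LKO males and 47.2 to 62.8 CPM in floxed males. Lymphocyte markers (7 of 7) summed to 3.85 to 11.2 CPM in LKO females, 6.20 to 9.93 CPM in floxed females, 4.62 to 13.4 CPM in LKO males and 4.77 to 10.5 CPM in floxed males. The sums of hepatocyte, endothelial and stellate markers did not overlap between LKO and floxed females. Of single genes tested, 16% did not overlap either, so lack of overlap alone says little about the cell types. A sum is weighted to its most abundant genes, and the median log2 fold change in females was 0.04 for the hepatocyte list, -0.65 for the endothelial list and -0.54 for the stellate list. The adipocyte list (4 of 5 in both tables) summed to 0.0309 to 0.536 CPM in LKO females, 0.123 to 5.45 CPM in floxed females, 31.2 to 66.7 CPM in LKO males and 9.67 to 26.2 CPM in floxed males, nearly all of it in males from Cfd (47.1 ± 14.8 CPM in LKO and 17.8 ± 8.96 CPM in floxed males, SD, n = 4 each). Of 7 olfactory mucosa markers 2 were in both tables, summing to 1.01 to 1.70 CPM in LKO females, 0.935 to 1.42 CPM in floxed females, 1.15 to 1.35 CPM in LKO males and 0.859 to 1.23 CPM in floxed males. No marker in both tables was at 0 in all 16 libraries. The part of these cell types in the levels of the Cyp2a genes and Cyp2g1 was not tested.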

How the data were processed

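Directional libraries of liver poly(A) RNA were sequenced, per the labels' protocols. For each sex the authors deposited whole-number counts per gene in 1 table, and these counts entered the tests unchanged. The build was mm10, per the submitters' processing notes. Aligner, counter and strand setting are not given in the sources used here. Tables held 24840 identifiers for females and 24623 for males. Rows without a symbol held 0.0349% and 0.0289% of counts.

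Each sex was fitted alone in edgeR 4.0.16 (R 4.3.3; quasi-likelihood F-test, TMM scaling, filterByExpr with minimum count 10 and minimum total 15, two-sided, Benjamini-Hochberg over all genes tested). All 5 members passed the filter in each fit. A fit of all 16 libraries gave the comparisons between sexes. CPM were scaled over all 16 libraries, and likeness used a prior count of 2 and genes whose log2 CPM averaged 1 or more, naming the 5 nearest genes other than members and predicted or clone-named models. Each p-value sets a group difference against the spread between mice. The members and the 12 gene lists and 9 marker lists were chosen with earlier results of these data known. The genes named from a list are among the 4 with its smallest p in that sex, except Cyp2f2, which was named for its position beside Cyp2a12.

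Alternatives were DESeq2 1.42.0, limma-voom (limma 3.58.1), other scalings and filters, robust dispersion, the 16-library fit, Cyp2a4 and Cyp2a5 summed, a replicate block, omission of each library, of male floxed 1 and 2, and of female floxed 4 and LKO 7. Those for LKO females against LKO males and for the lists were added after the data were seen. Sequences came from RefSeq (GRCm38.p6) and GENCODE transcripts. The fitting procedure was tested on simulated counts.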

Additional observations from a re-analysis of the deposited data

Results flagged for a closer look

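The effect of the knockout differed between the sexes by a test of the difference itself for Cyp2a4 (-3.74 on the log2 scale, female minus male), Cyp2a5 (-3.08) and Cyp2a22 (-3.03), each with an edgeR adjusted p under 0.05 in the fit of all 16 libraries. Sex and count table coincide, so a difference between the tables cannot be told apart from one between the sexes. Among 20 groups of 4 libraries, 1 library stood far from the rest of its group by Dixon's criterion, which chance meets in about 1 of 20 groups. It was LKO male 8 for Cyp2g1, with 0.632 CPM from 23 counts, against 0.393 to 0.433 CPM from 13 or 14 counts in the other LKO males.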

How the results depend on the processing

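Of 680 values of the 5 genes and their shares under the alternatives, 638 kept direction and side of the threshold, 22 lost a call, 11 gained one and 9 changed sign. Unless a sentence says otherwise, the causes were not tested.

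Robust dispersion left the Cyp2a4 value in males at 2.25 without a call. DESeq2 (-1.49), no filter (-1.49) and the 16-library fit (-1.49) gave Cyp2a4 a call in females, and DESeq2 gave one to the difference of Cyp2a12 (-0.38). Counting Cyp2a4 and Cyp2a5 as 1 feature, which Cyp2a5 dominates by construction in males, gave -0.15 in males, -2.41 in females, -1.28 over both sexes, 0.83 for floxed females against floxed males and -1.42 for LKO females against LKO males. Without male floxed 1 and 2 the difference of Cyp2a5 was -2.74 and floxed females differed from floxed males by -0.11 for Cyp2a5, 0.88 for Cyp2a22 and 1.81 for Cyp2g1, none called. Without female floxed 4 and LKO 7 the differences of Cyp2a12 (-0.43) and Cyp2g1 (-2.96) were called, Cyp2a12 in floxed females against floxed males (-0.23) was not, and Cyp2g1 in LKO females against LKO males was -0.63. For the last, limma-voom gave -0.54. Female floxed 4 was the lowest of its group for Cyp2a12 and Cyp2g1, so its omission enlarges their female falls by construction.

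Omission of each library in turn, which leaves 3 in its group, gave log2 values in males of 1.99 to 2.67 for Cyp2a4, -0.44 to -0.34 for Cyp2a12 and -0.32 to 0.00078 for Cyp2a22. In females it gave -1.82 to -1.25 for Cyp2a4 and -3.59 to -2.42 for Cyp2g1. Differences between the sexes ranged over -0.43 to -0.33 for Cyp2a12 and -2.76 to -1.59 for Cyp2g1. Floxed females against floxed males ranged over -0.34 to -0.23 for Cyp2a12, and LKO females against LKO males over -0.63 to 0.54 for Cyp2g1.

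Genes called in males numbered 160, against 518 with DESeq2, 97 in the 16-library fit and 69 to 179 with 1 library omitted. In females they numbered 1433, against 2415 with DESeq2, 2854 in the 16-library fit, 3028 without floxed 4 and LKO 7, and 396 to 2300 with 1 library omitted. For the difference there were 713, against 1358 with DESeq2, 243 without male floxed 1 and 2, 2030 without female floxed 4 and LKO 7, and 407 to 1435 with 1 library omitted. Over both sexes there were 1379, against 2902 without female floxed 4 and LKO 7 and 788 to 2252 with 1 library omitted.

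Expression showed no pairing of mice by replicate number, though 8 pairs cannot exclude one. Same-numbered libraries had correlations of -0.119 to 0.13 between their deviations from group means over 8 pairs, and in 2 of these pairs the female library correlated best with the male library of its own number and genotype. With the replicate block the difference had 468 genes called and both sexes 903, Cyp2a12 lost its call in floxed females against floxed males (-0.28), Cyp2g1 in LKO females against LKO males was -0.10, and no other call of a member changed. Cyp2g1, at 2 to 156 counts, is the member whose precision depth limits most.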
